A study of Mus musculus with 9 samples.

Results

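The 36 genes described here carry glucose into the cell, burn it through glycolysis, export lactate and feed the pentose phosphate route. They were taken as a named list and all 36 were found among the 19840 gene names of the series. The list holds 4 glucose and lactate transporters, 10 genes of the preparatory phase of glycolysis, 4 phosphofructokinase-2 genes, 9 payoff-phase genes, 5 genes that decide the fate of pyruvate and 4 pentose phosphate genes. RNA-seq expression values, reads scaled by transcript length and library size (RPKM), were available for 9 libraries of erythroid cells from C57BL/6 mouse fetal liver at embryonic day 13.5 to 14.5, 1 library per condition.

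The fresh libraries held BFU-E (burst-forming units, early erythroid progenitors), CFU-E (colony-forming units, the later progenitors) and Ter119+ erythroblasts. Progenitors were Kit+ cells that lacked CD34, CD41, CD16/32 and the lineage markers Gr-1, CD3, Mac-1, B220 and Ter119, with BFU-E taken as the 10% lowest in the transferrin receptor CD71 and CFU-E as the 20% highest. Ter119+ cells were Kit-. For culture, BFU-E were sorted by low CD71 alone (the CD71 sort) or by low CD71 and CD24a (the CD71/CD24a sort). They were kept for 4 h in serum-free medium with stem cell factor (100 ng/mL), IGF-1 (40 ng/mL) and erythropoietin (2 U/mL), and divided between arms for another 4 h. All 6 cultured libraries therefore share these factors. Dexamethasone (Dex), a glucocorticoid drug, was given at 100 nM to 1 arm of the CD71 sort, and water to the other. The CD71/CD24a sort received water, Dex, 333 µM DMOG, or Dex with DMOG. DMOG (dimethyloxalylglycine) inhibits 2-oxoglutarate-dependent dioxygenases, among them the prolyl hydroxylases that mark the hypoxia-inducible factor HIF-1α for destruction.

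Glycolysis turns glucose into pyruvate in a preparatory phase that spends ATP and a payoff phase that returns it, and most steps are encoded by several genes with tissue-specific use. Pyruvate enters the mitochondrion or is reduced to lactate, and the pentose phosphate route draws off glucose 6-phosphate to make NADPH and ribose. Red blood cells lose their mitochondria as they mature and then depend on glycolysis alone, and they also make 2,3-bisphosphoglycerate, which lowers the oxygen affinity of hemoglobin. Many glycolytic genes are textbook HIF targets.

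Recovered sequencing depth ran from 11.9 M reads in the CD71 sort with water to 52.7 M in the CD71/CD24a sort with Dex and DMOG. Levels below are normalised RPKM, that is, RPKM divided by 1 median-ratio factor per library. The factor of the Ter119+ library was 0.419 and those of the other 8 libraries were 1.02 to 1.18, and globin transcripts made up 38.2% of the Ter119+ RPKM. Of the 5 progenitor markers, Kit, on which the sorts were gated, stood at 175 in BFU-E, 83.0 in CFU-E and 2.45 in Ter119+. The other 4 were higher in Ter119+ than in both progenitors: Klf1 (187, 337 and 1247), Epor (87.0, 202 and 993), Tfrc (18.9, 104 and 1040), which encodes CD71, and Gata1 (169, 164 and 557). Summed erythroblast markers were 26.2, 158 and 100237. Neutrophil markers (9 of 9 found) summed to 99.3 in fresh BFU-E, 4.79 in CFU-E and 204 in Ter119+, all 9 at 1 or more in the last. Macrophage markers summed to 6.91, 1.53 and 40.3 and megakaryocyte markers to 60.5, 11.6 and 86.5. The 4 lymphoid markers summed to 8.92, 0.77 and 10.2, with Lck at 9.28 in Ter119+ and Cd3e at 0 in all 9 libraries. The part of these other cells in the differences given below was not tested. In bulk samples fewer expressing cells and less RNA per cell cannot be told apart.

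Of the 36 members, 28 were at 1 normalised RPKM or more in all 9 libraries. Hk3 and the neuronal enolase gene Eno2 were under 1 in every library, and Ldhb, the heart-type lactate dehydrogenase subunit, reached 1.03 only in fresh BFU-E. A further caution concerns copies. At least 10% of the 32-base words of the transcript recur in other genes or pseudogenes for 15 members, among them Gapdh (84.0%), Eno1 (77.0%), Pgk1 (68.3%), Pkm (49.8%), Pgam1 (42.1%), Gpi1 (36.5%), Aldoa (33.7%) and Ldha (33.2%). How reads that fit several places were counted is not given in the sources used here, so the values of these genes are uncertain. Gapdh ranged from 2.98 to 11.8 normalised RPKM over the 9 libraries and Pgk1 from 1.59 to 15.9, while Ldha reached 1176. Eno1 stood at 26.1 to 119.5, and Pgam1 at 3.49 to 7.16 in 8 of 9 libraries. The part of shared reads in the low values of Gapdh, Pgk1 and Pgam1 was not tested. Those values are given below as listed and may not reflect the amount of transcript.

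The first question is how glucose genes differ between the stages of erythroid maturation. Between BFU-E and CFU-E few members differed, and the clearest difference was a change of pyruvate kinase gene. Pklr, the liver and red-cell pyruvate kinase, stood at 108 in BFU-E, 424 in CFU-E and 507 in Ter119+. Pkm, the muscle and embryonic form, stood at 162, 80.5 and 11.1. The summed level of both genes was 269.9, 505 and 518, and Pklr made up 40.1% of it in BFU-E, 84.0% in CFU-E and 97.9% in Ter119+. Pklr exceeded BFU-E by 3.92-fold in CFU-E (95% interval 3.81 to 4.03 by the exact binomial method, counting error only). Pkm shares 49.8% of its words with other sequences and Pklr 23.7%, in part with its neighbour Hcn3.

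With 1 library per stage there is no replicate check, and a gene was called at a difference of 1 or more in log2(normalised RPKM + 1). Between BFU-E and CFU-E, 2 of the 33 members that passed the filter were higher in CFU-E, against 3.32% of all 9947 genes compared, and 2 were lower, against 12.3%. The second member that was higher was Slc16a3, which encodes the lactate exporter MCT4, at 49.4 and 104 (2.09-fold, 95% interval 2.00 to 2.20). Lower were Pfkp, the platelet-type phosphofructokinase, at 9.51 and 3.76, and Pfkfb3, which makes the phosphofructokinase activator fructose 2,6-bisphosphate, at 7.05 and 1.12. Pfkfb3 was thus 6.28-fold lower in CFU-E (95% interval 5.20 to 7.61). Just short of the limit lay Pkm with a log2 difference of -0.996, Hk2 with -0.91 and Gapdh with 0.96. The main lactate dehydrogenase gene Ldha (699.7 and 603) and the aldolase gene Aldoa (393 and 389) differed by far less.

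Between CFU-E and Ter119+ the members differed in both directions. Of 33 members compared, 8 were higher in Ter119+, against 22.6% of 9530 genes, and 12 were lower, against 28.8%. Far higher were 2 of the 4 transporter genes and the 2,3-bisphosphoglycerate gene Bpgm. Slc2a1, which encodes the glucose transporter GLUT1, stood at 28.6 in BFU-E, 22.5 in CFU-E and 4316 in Ter119+. The Ter119+ level was 192-fold that of CFU-E (95% interval 183 to 201), and 74.0-fold with RPKM as deposited. Slc2a3, which encodes GLUT3, was at 23.0, 21.6 and 13.8, within 2-fold, and Slc2a1 made up 55.5%, 51.0% and 99.7% of the pair. Slc16a1, the monocarboxylate transporter MCT1, was 8.11-fold higher, at 50.9 in CFU-E and 413 in Ter119+, and Slc16a3 was within 2-fold, at 104 and 84.8. Bpgm, the enzyme that makes 2,3-bisphosphoglycerate, stood at 11.1, 14.8 and 553, a 37.3-fold difference between CFU-E and Ter119+ (95% interval 34.8 to 40.1), or 14.4-fold as deposited. The intervals do not cover the choice of scaling.

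**Figure D1:**
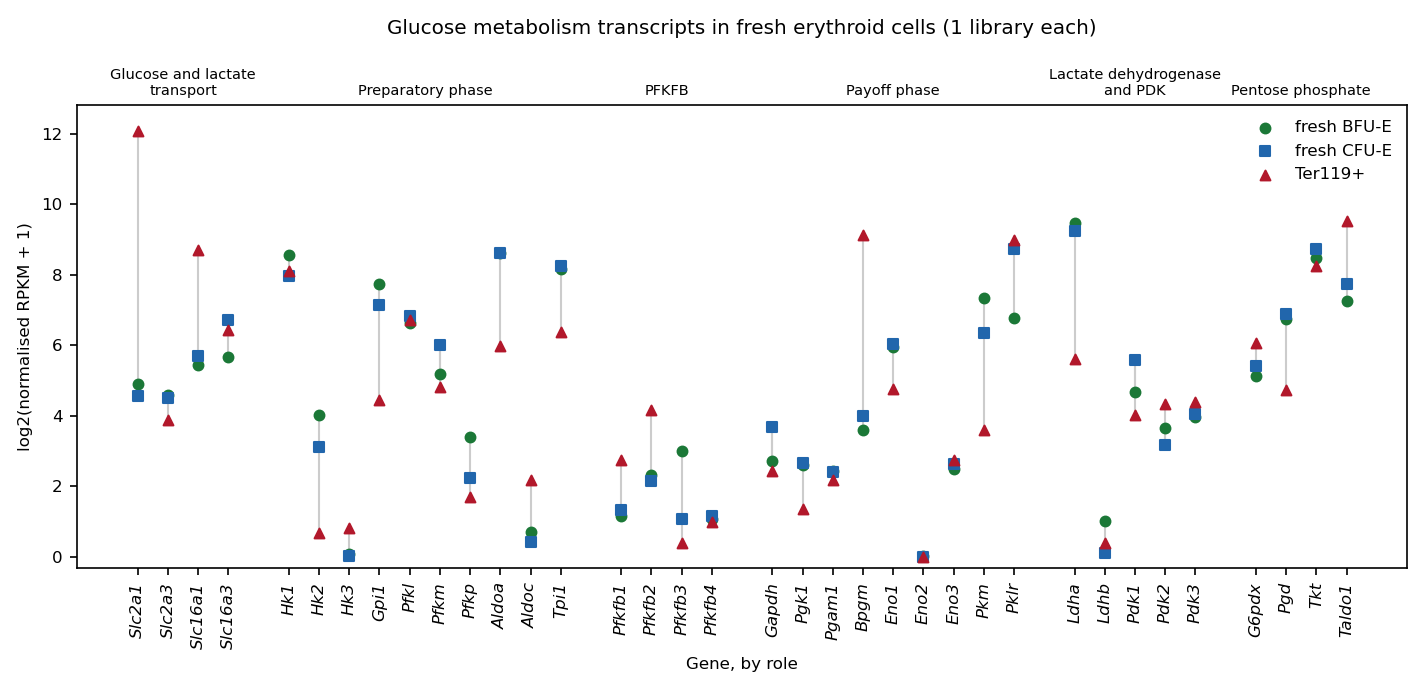
Levels of the 36 members in fresh BFU-E (circles), CFU-E (squares) and Ter119+ cells (triangles), 1 library each, as log2(normalised RPKM + 1) on the vertical axis, with genes grouped by role on the horizontal axis and a grey line spanning the 3 values of a gene. Slc2a1, Slc16a1 and Bpgm stand far higher in Ter119+, while Ldha, Aldoa, Gpi1 and Pkm stand far lower.

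In all, 8 of 33 members were at least 2-fold higher in Ter119+ than in CFU-E, against 22.6% of 9530 genes, and 12 were lower, against 28.8%. With these factors the share higher was near that of all genes, and the share lower was somewhat above it. With the other scalings given below the share lower was near that of all genes. Ldha was at 603 and 48.2, 12.5-fold lower (95% interval 11.6 to 13.5), or 32.4-fold as deposited. Hk2, the hexokinase of growing cells, was at 7.69 and 0.59, which rests on 23.8 recovered reads in Ter119+. Pkm was 7.29-fold lower, the glucose 6-phosphate isomerase gene Gpi1 6.70-fold (139 and 20.8) and Aldoa 6.24-fold (389 and 62.4). The 12 lower members were completed by Pfkm, Tpi1, Gapdh, Pgk1, Eno1, Pdk1 and Pgd.

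Within the preparatory phase 5 of 9 members that passed were lower and 1 was higher. The higher one was Aldoc, the brain-type aldolase, at 0.34 and 3.52, which passed the filter only through Ter119+. At the first and the committed step the most abundant gene was within 2-fold: Hk1 stood at 250.1 and 277, and Pfkl, the liver-type phosphofructokinase, at 112 and 104. Hk2 and the muscle-type phosphofructokinase gene Pfkm (63.2 and 27.4) were lower. With RPKM as deposited the log2 differences of Hk1 and Pfkl were -1.22 and -1.46, past the 2-fold limit on the lower side. Hk1 made up 96.1% of the hexokinase RPKM in BFU-E, 97.0% in CFU-E and 99.5% in Ter119+. Among the phosphofructokinase genes Pfkp made up 6.6%, 2.1% and 1.7% of the sum and Pfkl 68.6%, 62.6% and 77.8%.

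Of the 4 phosphofructokinase-2 genes, whose products set the level of fructose 2,6-bisphosphate, Pfkfb1 (1.53 and 5.69) and Pfkfb2 (3.44 and 17.0) were higher in Ter119+ than in CFU-E. Pfkfb3 made up 52.5% of the 4 in BFU-E, 15.3% in CFU-E and 1.4% in Ter119+, and Pfkfb2 made up 30.1%, 46.9% and 70.9%. Pfkfb2 shares 43.3% of its words with the gene model Gm29427. The summed level of the 4 stayed low, at 13.4, 7.34 and 24.0.

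The 4 pentose phosphate genes differed in direction. G6pdx, the enzyme that commits glucose 6-phosphate to the route and makes NADPH, stood at 33.7, 41.3 and 65.9. Pgd, which makes the second NADPH, stood at 106, 117 and 25.3 and was past 2-fold lower in Ter119+ than in CFU-E. Of the genes of the branch that returns sugars to glycolysis, Taldo1 (transaldolase) stood at 152, 212 and 739.7 and Tkt (transketolase) at 357, 421 and 304. Among pyruvate dehydrogenase kinases, which switch off the enzyme that feeds pyruvate to the citric acid cycle, Pdk1 was at 46.8 in CFU-E and 15.3 in Ter119+, Pdk2 at 7.95 and 19.1, and Pdk3 at 15.4 and 20.0.

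These counts depend on the scaling of the Ter119+ library. With RPKM as deposited, 3 of 33 members were higher and 20 lower, beside 788 and 5618 of 9318 genes. With RPKM divided by the sum without globin, the members were 5 and 17, beside 1027 and 4838 of 9395 genes. In both, the share of members lower was near that of all genes. The median difference of all genes was -0.21 with the factors, -1.30 as deposited and -1.04 without globin. All 3 scalings called Slc2a1, Slc16a1 and Bpgm higher and the same 12 members lower, while Hk1, Eno3, Pklr, Pdk2, Pdk3 and G6pdx changed sign. Both alternatives lower the Ter119+ values against those of the progenitors. The lower calls therefore could not be lost, and only the higher calls were put to a check. As deposited, Aldoc, Pfkfb1, Pfkfb2, Pdk2 and Taldo1 were no longer called higher. Against BFU-E, 8 of 34 members were higher in Ter119+ (21.2% of 10249 genes) and 11 were lower (35.8%). In all 3 scalings 3 and 11 held, of which the 11 could likewise not be lost.

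Other genes of glucose metabolism were read from a list of 70 found names outside the 36. Of 42 that could be compared between CFU-E and Ter119+, 5 were higher and 21 lower, against 22.6% and 28.8% of 9530 genes. As deposited, and likewise without globin, 5 were higher and 32 lower. Fn3k and Slc2a4 passed the filter only through Ter119+. The largest on the higher side were the fructosamine kinase gene Fn3k (0.43 in CFU-E and 406 in Ter119+), the insulin-responsive glucose transporter gene Slc2a4 (0.44 and 168), the pyruvate carboxylase gene Pcx (20.2 and 353) and Bsg, which encodes the monocarboxylate transporter partner basigin (361 and 2993). On the lower side were the glucose 6-phosphatase gene G6pc3 (31.5 and 3.44), the phosphoglucomutase gene Pgm2 (35.7 and 4.07), H6pd, the glucose 6-phosphate dehydrogenase of the endoplasmic reticulum (12.6 and 1.06), and the ribose-phosphate pyrophosphokinase gene Prps2 (14.3 and 1.65).

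**Figure D2:**
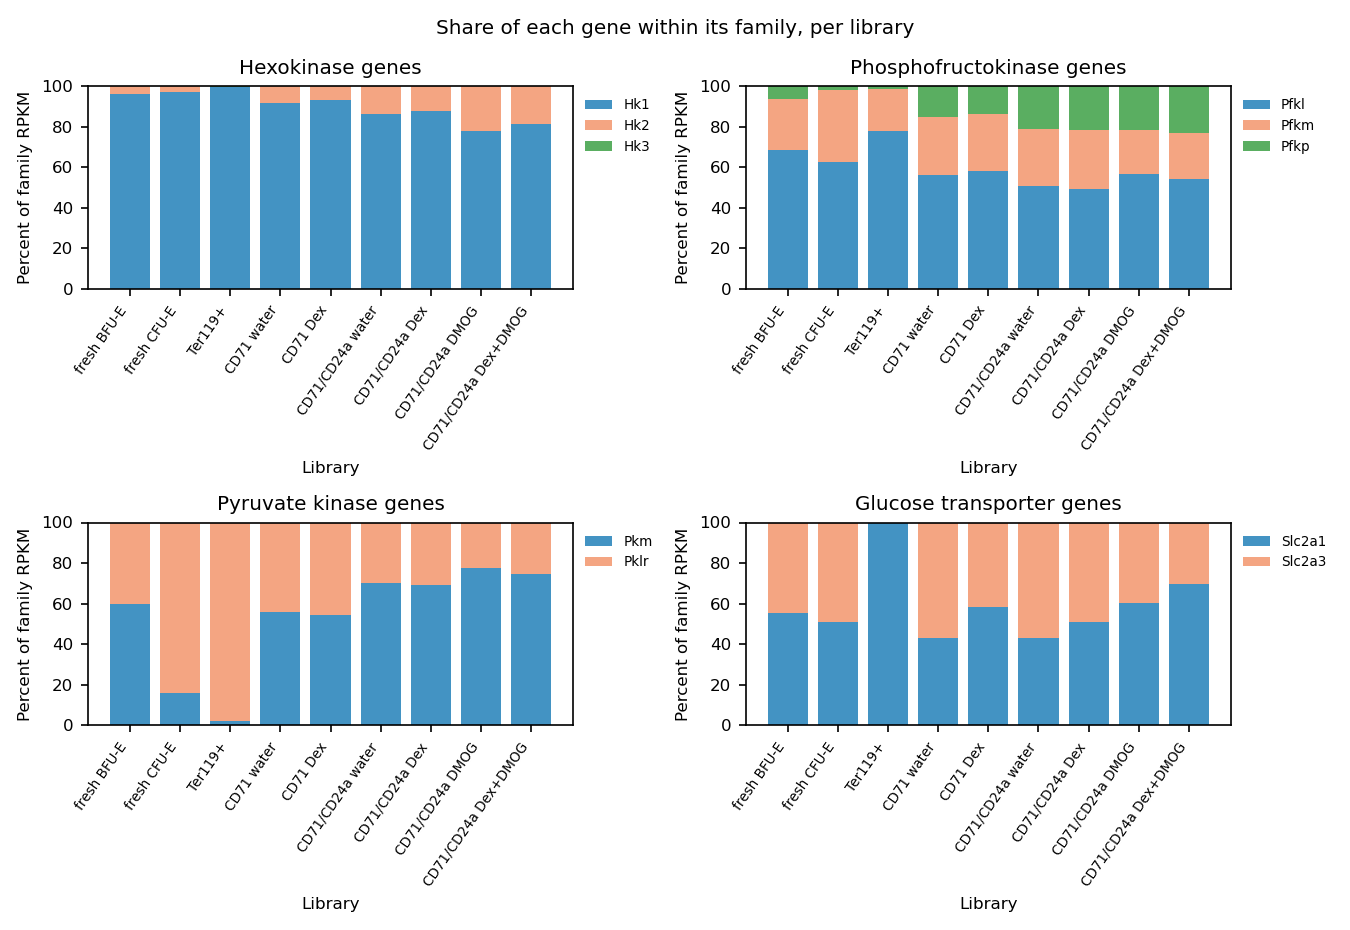
Share of each gene in the summed normalised RPKM of its family (percent, vertical axis) in each of the 9 libraries (horizontal axis) for hexokinases, phosphofructokinases, pyruvate kinases and the 2 glucose transporter genes. Pklr and Slc2a1 fill most of their families in Ter119+, and Hk2 and Pfkp take their largest shares in the cultured CD71/CD24a sort.

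The next comparison sets cultured BFU-E against fresh BFU-E, in which the culture and the separate handling of the libraries cannot be told apart. The 2 NADPH-making genes of the pentose phosphate route were higher in culture, and the kinase gene Pdk2 was lower. G6pdx was 33.7 in fresh BFU-E and 77.4 to 97.0 in the 6 cultured libraries, and Pgd was 106 and 243 to 297. Pdk2 was 11.5 in fresh BFU-E and 2.41 to 2.97 in culture. These 3 members passed 2-fold in each of the 6 cultured libraries, which 1.9% of 10264 genes did on the higher side and 4.16% on the lower side. Markers differed in the same comparison. Kit was 175 in fresh BFU-E and 43.3 to 93.0 in culture, and Tfrc was 18.9 and 114 to 233, above its CFU-E level of 104. Klf1 was 187 in fresh BFU-E and 62.4 to 187 in culture, below its CFU-E level of 337. Epor was 87.0 and 37.6 to 93.3, below its CFU-E level of 202, and Gata1 was 169 and 111 to 136. Neutrophil markers summed to 99.3 in fresh BFU-E and 5.31 to 26.4 in culture, and lymphoid markers to 8.92 and 1.41 to 2.26. Their part in these differences was not tested.

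Against the CD71 sort with water alone, 3 of 34 members were higher (6.27% of 10060 genes) and 1 was lower (9.06%). The third higher member was Pgam1, a phosphoglycerate mutase gene with copies elsewhere, at 4.43 in fresh BFU-E and 49.97 in that library. The other 5 cultured libraries held Pgam1 at 3.55 to 7.16, so 1 library stands apart for this gene. Of 34 members, 16 were above their fresh level in all 6 cultures and 6 were below it. These counts were not made over all genes, so they are not read as a trait of the members. All 6 cultures were set against the same 1 fresh library and are not independent comparisons. Among the 16 were Hk2 (15.4 against 20.7 to 64.1) and Pfkp (9.51 against 15.0 to 26.7). Among the 6 were Pfkl (98.5 against 41.3 to 65.8) and Hk1 (378 against 176 to 327). Hk2 took 3.9% of the hexokinase RPKM in fresh BFU-E, 7.1% and 8.4% in the CD71 sort and 12.5% to 22.2% in the CD71/CD24a sort.

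Between the 2 sorts cultured in water, no member was higher in the CD71/CD24a sort (1.44% of 9737 genes) and 3 were lower (3.07%). They were Gapdh (9.40 and 3.45), Pgam1 (49.97 and 3.55, from the library that stands apart) and Tkt. Tkt was 387 and 428 in the CD71 sort with water and Dex, and 192, 181, 214 and 177 in the CD71/CD24a sort with water, Dex, DMOG and both. The libraries of the sorts did not overlap for Tkt, though its difference of -1.01 lay at the limit and Tkt was not called without the factors. Summed erythroblast markers were 298 and 113 in the CD71 sort and 13.9 to 21.9 in the CD71/CD24a sort, and neutrophil markers 26.4 and 26.0 against 5.31 to 6.38. Their part in the difference was not tested.

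The Dex comparison asks which members respond to a glucocorticoid within 4 h. Dex raised 3 of the 33 members tested and lowered 0. They were Pfkfb4, a phosphofructokinase-2 gene, Bpgm and Hk1. The fit was limma's moderated test over the 6 cultured libraries with each culture pair as a block, and Benjamini-Hochberg adjustment over 9535 genes, of which 1.39% rose and 0.629% fell. No condition was replicated, so the spread is that of the Dex difference between 3 pairs of libraries, which may be partly technical, with 2 residual degrees of freedom. By the labels' protocol the arms of each sort were portions of the same cells, so 2 of the 3 pairs come from the CD71/CD24a sort. Kit, Tfrc and the summed erythroblast markers differed with Dex in the same direction in all 3 pairs. Klf1, Epor and Gata1 did not. Kit was 45.4 with water and 93.0 with Dex in the CD71 pair, 43.3 and 65.3 in the CD71/CD24a pair, and 49.5 and 79.0 with DMOG. Tfrc was 201 and 114, 228 and 167, and 233 and 177. Summed erythroblast markers were 298 and 113, 21.9 and 18.9, and 17.6 and 13.9, though Slc4a1 and Alas2 within the sum changed direction between pairs. Klf1 was 165 and 187, 75.4 and 66.3, and 77.1 and 62.4. Epor was 80.5 and 93.3, 43.5 and 38.3, and 42.8 and 37.6. Gata1 was 135.8 and 136.0, 132.7 and 130.0, and 121.4 and 110.8. Their part in the Dex differences was not tested.

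In the CD71 sort Pfkfb4 was 2.18 with water and 11.7 with Dex. In the CD71/CD24a sort it was 3.49 and 8.04, and with DMOG in both arms 3.26 and 7.05. All 3 libraries with Dex lay above all 3 without it. The log2 difference was 1.31 (SE 0.21, limma adjusted p = 0.0374), though the CD71 pair with 2.01 stood apart from the 1.01 and 0.92 of the other pairs. Pfkfb4 thereby went from 17.7% to 50.7% of the phosphofructokinase-2 RPKM in CD71-sorted cells. After sorting by both markers it went from 17.3% to 31.7%, and with DMOG from 15.1% to 23.5%.

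Bpgm was 12.3 and 18.2 in the CD71 sort with water and Dex, 17.8 and 28.1 in the CD71/CD24a sort, and 15.4 and 25.3 with DMOG. All 3 values with Dex exceeded all 3 without, though across sorts only by a small margin (18.2 against 17.8). The log2 difference was 0.61 (SE 0.071, limma adjusted p = 0.0124). Hk1 was 225 and 327, then 184 and 249, then 176 and 274, a log2 difference of 0.54 (SE 0.073, limma adjusted p = 0.0229). All 3 Hk1 values with Dex exceeded all 3 without.

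These calls were made with few degrees of freedom. Without the water or the Dex library of the CD71/CD24a sort, Pfkfb4 alone of the 3 was called, and Bpgm had a limma adjusted p of 0.0673 and 0.0675 and Hk1 of 0.0753 and 0.0764. Without a library of the CD71 pair, 9 members were called. The same 3, Hk2 (0.30) and Pfkfb3 (0.30) rose, and Slc2a3 (-0.30), Aldoc (-0.38), Gapdh (-0.69) and Eno1 (-0.46) fell. Calls over all genes were also more numerous there. Without the CD71 water library 483 of 9535 genes rose and 672 fell, where the main fit called 133 and 60. Over the 13 alternative settings the limma adjusted p of Bpgm ran from 9.51e-05 to 0.99997, that of Hk1 from 0.00102 to 0.99997 and that of Pfkfb4 from 2.44e-05 to 0.430.

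**Figure D3:**
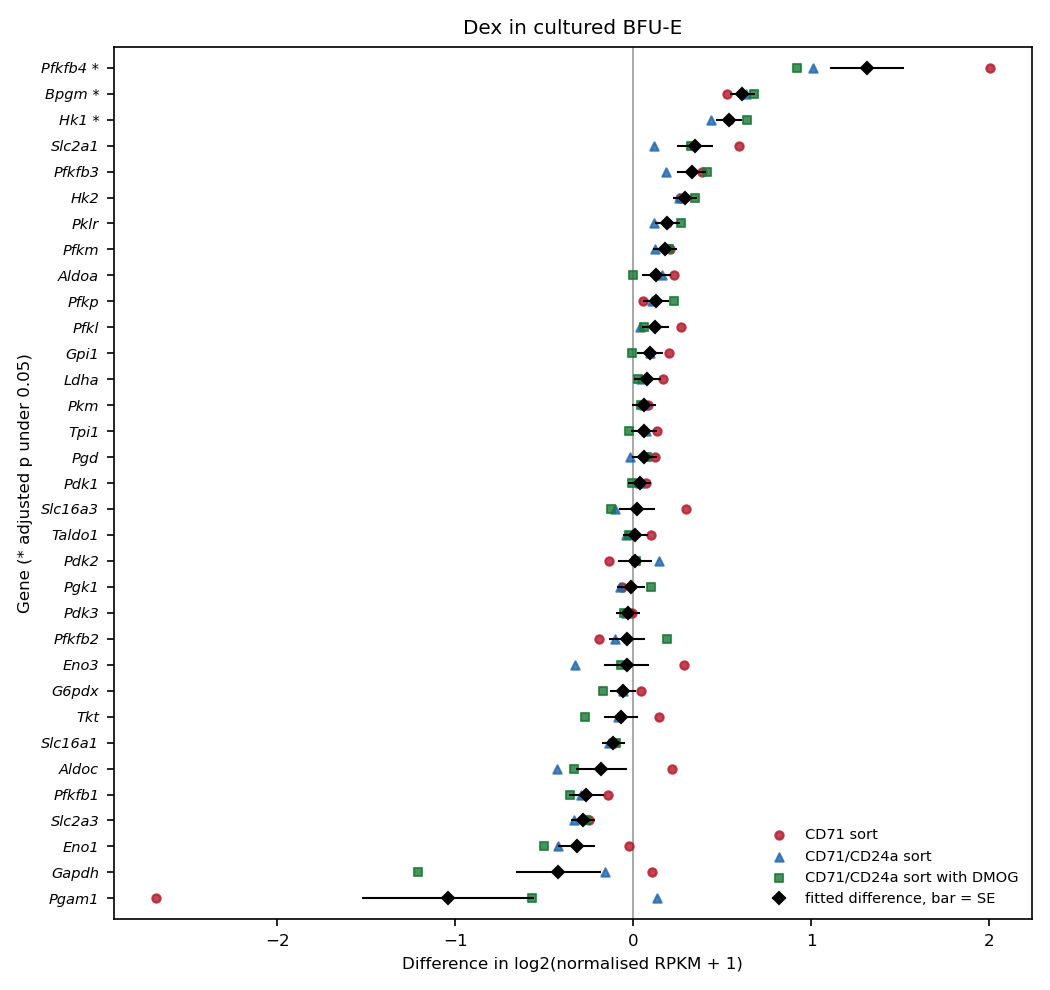
Dex minus water for the 33 tested members (vertical axis), as the difference in log2(normalised RPKM + 1) on the horizontal axis, for the CD71 sort (circles), the CD71/CD24a sort (triangles) and the CD71/CD24a sort with DMOG (squares). Diamonds with bars give the fitted difference and its SE, and asterisks mark Pfkfb4, Bpgm and Hk1, the members with an adjusted p under 0.05.

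Of the members that did not pass, Slc2a1 had a Dex difference of 0.34 (limma adjusted p = 0.182), Hk2 of 0.29 (adjusted p = 0.109) and Slc2a3 of -0.28 (adjusted p = 0.113). Slc2a1 was higher and Slc2a3 lower with Dex in each of the 3 pairs. In all, 12 of 33 members were higher with Dex in the 3 pairs, against 19.5% of all genes, and 5 were lower, against 21.2%. The median difference was 0.03 over the members and -0.02 over all genes. Unadjusted p was under 0.05 for 11 members and for 1540 genes. Pentose phosphate members lay between -0.07 and 0.06. Of 43 tested genes on the list of other glucose genes, Pcx (0.43, limma adjusted p = 0.0442) and the liver glycogen phosphorylase gene Pygl (0.57, adjusted p = 0.0421) rose and none fell.

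The DMOG comparison asks how members respond when the oxygen-sensing hydroxylases are inhibited. DMOG was given only in the CD71/CD24a sort, once without and once with Dex. The glucose transporter gene Slc2a1 had the largest difference among the members, and genes of both phases of glycolysis, the lactate exporter and Pdk1 were higher with DMOG in both pairs. The 2 DMOG libraries were also the deepest, at 40.1 M and 52.7 M reads against 11.9 M to 23.7 M in the other 7, and the part of depth was not tested. Over all 6 cultured libraries 0 members passed limma's adjusted threshold, as did only 0.021% of genes on the higher side and 0% on the lower side. Unadjusted p was under 0.05 for 17 of 33 members and for 347 of 9535 genes.

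Slc2a1 was 23.7 with water and 56.2 with DMOG, and 25.7 with Dex and 70.6 with both. Both libraries with DMOG lay above the other 4 cultured libraries, the CD71 sort included (21.0 and 32.2). The log2 difference was 1.32 (SE 0.12, 2.49-fold, limma adjusted p = 0.0519), with 1.21 and 1.42 in the 2 pairs. Slc2a1 made up 42.9% of the Slc2a1 and Slc2a3 RPKM with water, 60.1% with DMOG, 50.9% with Dex and 69.6% with both.

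Slc16a3, the MCT4 exporter, was 41.9 with water and 80.4 with DMOG, and 39.0 with Dex and 73.5 with both, a difference of 0.91 (SE 0.12, limma adjusted p = 0.159). In the CD71 sort without DMOG it stood at 66.4 and 81.5, so its level with DMOG was reached there without the compound. Slc16a1, the MCT1 gene, differed by 0.05. Hk2 was 29.7 and 50.3, and 35.6 and 64.1, a difference of 0.79 (SE 0.081, limma adjusted p = 0.0609), and both DMOG libraries lay above the other 4. Hk1, by contrast, was 184 and 176, and 249 and 274, a difference of 0.04.

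Further down the pathway, Aldoa had a DMOG difference of 0.57, Pfkl of 0.53, Pfkp of 0.45 and the triose phosphate isomerase gene Tpi1 of 0.41. Pkm was 227.5 with water, 350.3 with DMOG, 237 with Dex and 360.2 with both, a difference of 0.61 (limma adjusted p = 0.159). Pklr, the other pyruvate kinase gene, differed by 0.14. The phosphoglycerate kinase gene Pgk1 was 8.63 and 14.8, and 8.14 and 15.9, a difference of 0.80 (limma adjusted p = 0.0915), from a gene whose words are mostly shared. Gapdh differed by 0.93, though by 1.46 without Dex and 0.40 with it. Aldoc was 1.98 and 4.53, and 1.21 and 3.39, a difference of 0.94 (adjusted p = 0.451), which rests on 45.6 to 365 recovered reads.

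Past pyruvate, Pdk1 was 22.5 with water, 32.4 with DMOG, 23.1 with Dex and 32.3 with both, a difference of 0.49. Ldha, at 1018 with water, differed by 0.17. The 4 pentose phosphate genes lay between -0.05 and 0.07, and Bpgm had a difference of -0.17. Median DMOG differences by role were 0.59 for the 4 transporters, 0.45 for 9 preparatory members, 0.48 for 8 payoff members, 0.21 for 4 pyruvate members, 0.03 for pentose phosphate members and -0.0035 for the phosphofructokinase-2 genes. Over all 33 members the median was 0.27, and over all genes -0.0028.

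**Figure D4:**
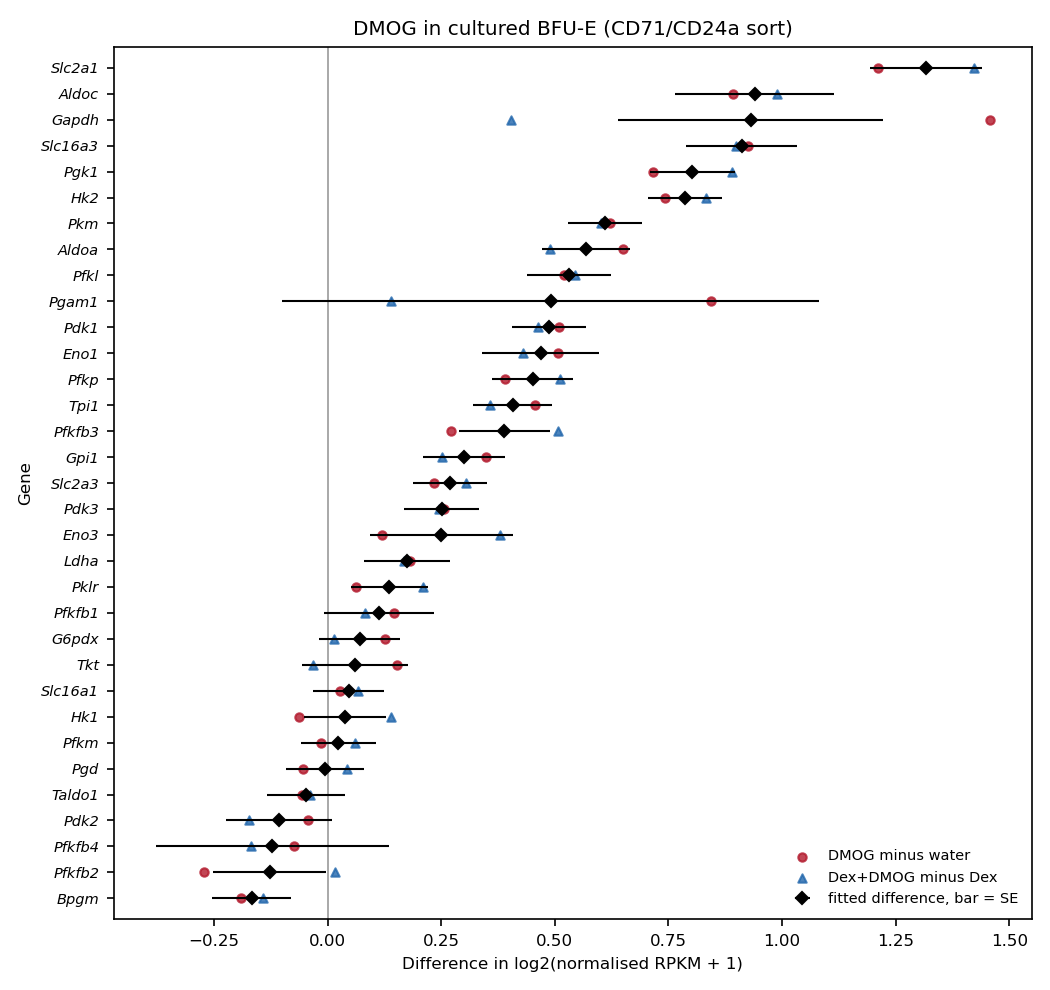
DMOG difference of the 33 tested members (vertical axis) in log2(normalised RPKM + 1) on the horizontal axis, without Dex (circles) and with Dex (triangles). Diamonds with bars give the fitted difference and its SE, with Slc2a1 at 1.32 at the top and Bpgm at -0.17 at the bottom.

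Of the 33 members 24 were higher with DMOG in both pairs, against 27.9% of all genes, and 4 were lower, against 28.4%. A difference of 0.4 or more in both pairs, a limit chosen after the values were seen, was found in 11 members and in 0.64% of genes. These were Slc2a1, Slc16a3, Hk2, Pfkl, Aldoa, Aldoc, Gapdh, Pgk1, Eno1, Pkm and Pdk1, of which Slc2a1, Slc16a3, Hk2, Pfkl, Aldoc and Pdk1 share under 10% of their words with other sequences. The 2 pairs share no library, though all 4 are arms of the same sort. On the list of other glucose genes 1 of 43 reached this limit, and 0 passed the adjusted threshold.

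The CD71 pair adds nothing to the DMOG difference itself, and its Dex difference enters the spread: for Slc2a1 the Dex differences were 0.59 in the CD71 pair, and 0.11 and 0.32 in the others. Without the CD71 water library, the fit reduces to the 4 CD71/CD24a libraries, with the same DMOG differences and 1 residual degree of freedom. Then 13 members rose and 0 fell, while 0.839% of genes rose and 0.346% fell. They were the 11 above with Pfkp and Tpi1. Limma adjusted p was 1.32e-06 for Slc2a1, 1.42e-05 for Slc16a3, 6.86e-05 for Hk2, 0.000314 for Pgk1, 0.0016 for Pkm and 0.0035 for Pdk1. Without the CD71 Dex library the count was also 13. Without 1 of the CD71/CD24a libraries the count was 0 to 3, and Slc2a1 was called in 3 of those 4 fits. Over 13 alternatives the adjusted p of Slc2a1 ran from 1.32e-06 to 0.638 and that of Hk2 from 6.86e-05 to 0.805.

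Whether Dex and DMOG add on the log2 scale was asked by an interaction term, which rests on 1 residual degree of freedom. Limma called 0 of 9535 genes and 0 members, with an unadjusted p under 0.05 for 275 genes and 1 member. That member was Gapdh (-1.19, adjusted p = 0.578), which was 11.2 with DMOG and 4.27 with both. For Pfkfb4, which rose with Dex and had a DMOG difference of -0.12, the interaction was -0.59 (SE 0.33, adjusted p = 0.999). The term sets the Dex difference with DMOG against the mean of both pairs without it, the CD71 pair included, so a difference between sorts enters it. Within the CD71/CD24a sort the Dex difference of Pfkfb4 was 1.01 without DMOG and 0.92 with it. For Slc2a1 the term was -0.03 (SE 0.22), while within that sort the Dex difference was 0.11 without DMOG and 0.32 with it. For Hk2, with a Dex difference of 0.29 and a DMOG difference of 0.79, the term was 0.09 (SE 0.19). A p that misses the threshold does not show that the 2 differences add.

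HIF binds the hypoxia response element, whose core is ACGTG or, with another first letter, GCGTG. Promoters were searched for both words on both strands. The windows run from 250 bases before to 50 bases after the start of transcription, taken from RefSeq on GRCm38.p6, and 35 of the 36 members had 1 or more, 56 windows in all. Slc2a3 had none. Shown are the 4 members with the largest DMOG difference among those with under 10% shared words, chosen after their values were seen. Capitals mark a match to either word on the printed strand, or its reverse complement where the match is on the opposite strand. The windows are chr4:119108495-119108794 on the plus strand for Slc2a1, chr11:78322823-78323122 on the plus strand for Aldoc (1 of 2 windows), chr11:120948817-120949116 on the plus strand for Slc16a3 and chr6:82774405-82774704 on the minus strand for Hk2.
Slc2a1: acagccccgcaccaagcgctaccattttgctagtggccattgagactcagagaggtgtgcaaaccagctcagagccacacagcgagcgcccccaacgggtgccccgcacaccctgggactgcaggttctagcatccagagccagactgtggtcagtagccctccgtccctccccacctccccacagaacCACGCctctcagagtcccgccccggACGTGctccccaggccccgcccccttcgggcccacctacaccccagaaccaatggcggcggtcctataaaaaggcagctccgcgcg
Aldoc: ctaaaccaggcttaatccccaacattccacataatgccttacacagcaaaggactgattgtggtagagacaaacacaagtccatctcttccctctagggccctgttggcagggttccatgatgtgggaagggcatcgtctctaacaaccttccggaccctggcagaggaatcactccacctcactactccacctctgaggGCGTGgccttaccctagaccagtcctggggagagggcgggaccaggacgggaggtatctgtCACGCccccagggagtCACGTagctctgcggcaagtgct
Slc16a3: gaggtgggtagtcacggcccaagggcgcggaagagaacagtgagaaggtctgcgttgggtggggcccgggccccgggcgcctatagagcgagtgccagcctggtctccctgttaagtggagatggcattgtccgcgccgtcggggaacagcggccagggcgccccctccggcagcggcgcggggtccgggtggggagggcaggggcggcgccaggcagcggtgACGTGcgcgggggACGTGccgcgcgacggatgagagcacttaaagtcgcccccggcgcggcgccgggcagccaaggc
Hk2: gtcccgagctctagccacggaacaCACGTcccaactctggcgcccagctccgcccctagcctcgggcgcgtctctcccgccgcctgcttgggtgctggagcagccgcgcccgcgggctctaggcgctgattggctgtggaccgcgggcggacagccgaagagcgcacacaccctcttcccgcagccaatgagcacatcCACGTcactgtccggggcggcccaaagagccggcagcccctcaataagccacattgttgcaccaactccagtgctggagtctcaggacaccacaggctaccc
Slc2a1 holds 1 ACGTG and 1 GCGTG, Aldoc 1 and 2, and Slc16a3 and Hk2 hold 2 ACGTG each and no GCGTG. The 2 matches of Slc16a3 lie close together, and those of Hk2 lie apart.

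Either word was found in 71.4% of the member windows and in 43.8% of all 32851 windows. ACGTG alone was found in 41.1% against 19.6% and GCGTG alone in 51.8% against 32.4%, and the 2 words can overlap. Member windows were also richer in G and C, with a median of 57.5% against 52.7%, and both words are GC-rich, so the part of base composition was not tested. Of 32 members with a window and a DMOG difference, 9 of the 14 at 0.4 or more held ACGTG and 9 of the 18 below 0.4 did. Slc16a1, with a DMOG difference of 0.05, held 3 ACGTG and 2 GCGTG matches. A match is a run of letters and not evidence of binding.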

How the data were processed

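Paired-end mRNA sequencing of 9 libraries was deposited as RPKM per transcript, 23041 records a file. The submitters' processing notes name the build mm9. Aligner and counter are not given in the sources used here. Per symbol the record with the highest mean was kept, and an exact 1 counts as 0 in the 4 files of the CD71/CD24a sort, which hold no 0. Depth was recovered from whole-read steps (67.0% to 70.0% of low values whole within 0.1 reads, 20% by chance), and exact binomial intervals come from these reads and cover counting error only. Factors are median ratios over 6888 genes. Differences are on the log2(normalised RPKM + 1) scale, which understates those of low genes. The fit (limma 3.58.1 with trend, R 4.3.3) used genes with a mean of 1 or more over the cultured libraries, with culture pairs as blocks, since the treatment protocol in the labels says that portions of the cells of a sort went to each arm. Whether a sort was done once or pooled is not given there. The fit was also run on simulated data, with no outcome given here, and such a run cannot stand in for replicates. Comparisons of 1 library a side had no test. Alternatives were other scalings, pseudocounts, filters, records and left-out libraries. All 36 members are named. Members, lists and rules were chosen with earlier results of these data known. Promoters were to be shown for members passing the DMOG test, and none did.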

Additional observations from a re-analysis of the deposited data

How the results depend on the processing

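Replicate checks were limited to pairs of libraries, and the counting of reads that fit several places was not given. The Dex count of 3 members became 0 with no filter on low values and 0 with no replicate block (limma without the sort in the model), and 1 to 9 when 1 library was left out. The DMOG count of 0 became 1 with the mean over records of a symbol, and 0 to 13 when 1 library was left out. It was 0 with no replicate block and under the other settings, as was the interaction count under all 6 of its alternatives. Between BFU-E and CFU-E a pseudocount of 0.1 gave 7 members at 2-fold, where the main count was 4. With only members under 10% shared words, an alternative chosen after seeing the data, counts were 2 of 4 between BFU-E and CFU-E, 10 of 20 between CFU-E and Ter119+, 8 of 19 between BFU-E and Ter119+, 2 of 4 between fresh and cultured BFU-E and 1 of 3 between the sorts, by construction with fewer members. The call on Pdk2 between CFU-E and Ter119+ turned to -0.095 as deposited. Over the values of single members and their alternatives, 1693 kept their call in a test or, where untested, stayed within counting error. Direction was not compared for tested values that stayed short of the threshold. Another 176 untested values moved beyond counting error, 44 gained and 10 lost a call, and 1, that of Pdk2, reversed. Between the sorts, 140 genes were higher and 299 lower with the factors, and 361 and 210 without. The cause of the other shifts was not tested. Depth limits Aldoc, Hk2 in Ter119+ and the members under 1 RPKM.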
